A study of Mus musculus with 12 samples.

Results

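Cells make cholesterol from acetyl-CoA through the mevalonate pathway, take it up in lipoproteins, and store or export what they do not need. Synthesis genes are switched on by SREBP transcription factors, which SCAP carries to the Golgi when the endoplasmic reticulum is poor in sterol and which INSIG proteins hold back when it is rich. Oxysterols activate the nuclear receptors called LXR, which switch on the exporters of cholesterol, and in dendritic cells and macrophages the balance of these arms is tied to antigen presentation and inflammatory signalling. The 30 mouse genes followed here were chosen by symbol, and all were among the 42687 gene identifiers of the count table and had enough counts to be tested (30 of 30). They fall into 18 sterol synthesis enzymes, 2 genes of sterol transfer and storage, 5 of SREBP control, and 5 LXR receptors and targets, the last including Mylip, which limits lipoprotein uptake.

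Their mRNA was sequenced from DC2.4, an immortalised dendritic cell line of wild-type mouse genotype, so that 1 line stands for the cell type. The 4 groups of 3 libraries received ATEVs at 15 µg/mL, NTEVs at 30 µg/mL, ATEVs pretreated with Baseline-ZERO DNase at 15 µg/mL (DNAse+ATEVs below), or PBS, the buffer control. NTEVs are extracellular vesicles of non-activated T cells, and ATEVs are their counterpart from activated T cells. The amount of vesicle differed between ATEVs and NTEVs. The labels add 5 µg/mL of vesicle DNA after the NTEV dose, and whether this also holds for ATEVs is unclear. Cells were harvested and plated again the day after treatment, with 3 repeats, and whether those were rounds on the same cells or separate experiments is unclear. Separate cultures for the 3 libraries of a group are not stated, so p-values measure only how far these samples lie apart, a spread that may be technical.

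Library totals averaged 20.8 ± 1.41 M counts with ATEVs, 24.9 ± 5.05 M with NTEVs, 21.4 ± 1.46 M with DNAse+ATEVs and 23.8 ± 2.36 M with PBS (SD, n = 3 each), and 13261 genes carried enough counts to be tested. Of 15 dendritic and leukocyte markers, 10 were tested. Ptprc, Itgax, Spi1, Irf8, Batf3 and Zbtb46 had counts in every library, while Clec9a had none and Flt3, Xcr1, H2-Aa and H2-Ab1 were near 0. The summed level of that list was 954 to 1050 CPM (counts per 1e+06 counts of a library, scaled by TMM factors) with ATEVs, 835 to 914 with NTEVs, 843 to 999 with DNAse+ATEVs and 758 to 819 with PBS. Among 15 T cell markers, 5 had no count in any library, including Cd3e, Cd8a and both T cell receptor beta constant genes. The T cell list summed to 43.1 to 62.3 CPM with ATEVs, 34.8 to 52.5 with NTEVs, 53 to 59.7 with DNAse+ATEVs and 59.5 to 102 with PBS. That sum came nearly all from Cd28 (26.6 to 94.6 CPM over all libraries) and Lck (6.85 to 18.5 CPM), the only 2 tested. The other T cell genes were near 0, so the sum is no measure of T cell material. The 9 macrophage markers, given further below, had counts in every library.

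The promoters of Hmgcs1, Lss, Insig1 and Abca1 were searched for letters through which this pathway is usually read. Hmgcs1 makes HMG-CoA, from which mevalonate is formed, and carries a classical sterol regulatory element, the letters SREBP binds. Lss closes the sterol ring as lanosterol synthase, and Insig1 encodes the sterol-responsive brake on SREBP. Abca1 exports cholesterol to lipoproteins and is shown as the contrast from the LXR arm. The sequences are RefSeq's, build GRCm38.p6, at chr13:119690101-119690350 (plus strand), chr10:76531355-76531587 (plus), chr5:28071162-28071362 (plus) and chr4:53159896-53160145 (minus). Each starts 250 bases before the annotated gene start and ends before the first annotated exon base. Capitals mark TCACNCCAC (the sterol regulatory element) and CCAAT (the CCAAT box, bound by NF-Y), each on either strand, so that ATTGG is a CCAAT box of the other strand.
Hmgcs1: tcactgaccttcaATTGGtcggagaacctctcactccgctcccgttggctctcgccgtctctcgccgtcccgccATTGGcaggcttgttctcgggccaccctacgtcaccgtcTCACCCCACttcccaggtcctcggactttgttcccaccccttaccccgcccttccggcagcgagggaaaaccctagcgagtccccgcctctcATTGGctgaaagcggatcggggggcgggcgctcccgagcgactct
Lss: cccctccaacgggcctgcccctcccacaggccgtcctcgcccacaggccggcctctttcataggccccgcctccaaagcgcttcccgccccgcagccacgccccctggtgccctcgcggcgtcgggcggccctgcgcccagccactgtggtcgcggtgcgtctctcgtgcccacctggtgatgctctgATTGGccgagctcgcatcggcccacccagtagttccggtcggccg
Insig1: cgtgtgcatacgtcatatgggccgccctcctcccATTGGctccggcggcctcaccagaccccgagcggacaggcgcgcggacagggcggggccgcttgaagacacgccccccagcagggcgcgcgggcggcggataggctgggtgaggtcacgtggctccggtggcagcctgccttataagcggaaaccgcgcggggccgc
Abca1: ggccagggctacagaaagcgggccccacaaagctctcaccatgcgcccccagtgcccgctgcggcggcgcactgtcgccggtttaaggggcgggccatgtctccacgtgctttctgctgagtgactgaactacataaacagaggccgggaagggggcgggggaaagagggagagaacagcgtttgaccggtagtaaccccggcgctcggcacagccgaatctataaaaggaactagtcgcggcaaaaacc
The Hmgcs1 window held 1 sterol regulatory element and 3 CCAAT boxes, the Lss and Insig1 windows held 1 CCAAT box each, and the Abca1 window held neither. Over the full table windows, 250 bases before to 50 after the start, 25 of the 30 genes had an entry. TCACNCCAC was found in 1 of the 25, against 1.44% of 27025 genes. CCAAT was found in 20 of 25 (80%), and in 14 of the 15 enzymes with an entry, against 41.1% of all genes. GGGCGG, the GC box, stood in 22 of 25 (88%), against 38.2%. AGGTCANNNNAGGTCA, 1 exact spelling of the direct repeat that LXR binds, was in 0 of 25. Over all genes it was in 4 of 27025 (0.0148%), too few for its absence here to be read. The genes set beside the 25 are all those with an entry, and not only the 13261 tested in these cells. These shares therefore do not compare expressed genes with expressed genes. A match is a description of letters. A sterol or LXR element with other letters or outside the window is not counted, so the windows may hold unmarked elements.

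None of the 30 genes differed between groups past an adjusted p of 0.05, in any of the 6 comparisons or in the test over all 4 groups, against 0 to 4.74% of all tested genes by edgeR. The synthesis enzymes, with Insig1 and Stard4, varied together between libraries of the same group. The levels below are TMM-scaled CPM, in the order of replicates 1, 2 and 3.

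Of the early enzymes, Hmgcs1 had 140, 201 and 160 CPM with ATEVs, 148, 131 and 243 CPM with NTEVs, 153, 168 and 130 CPM with DNAse+ATEVs, and 162, 169 and 138 CPM with PBS. Idi1, the isomerase that sets up isoprenoid chain growth, had 6.89, 18.4 and 27.2 CPM with ATEVs, 17.7, 8.93 and 18.2 CPM with NTEVs, 20.4, 11.3 and 11.3 CPM with DNAse+ATEVs, and 19.9, 17.7 and 15.8 CPM with PBS. Fdps, which builds farnesyl diphosphate, had 2.97, 10.7 and 7.1 CPM with ATEVs, 6.9, 4.36 and 8.9 CPM with NTEVs, 6.89, 6.01 and 3.51 CPM with DNAse+ATEVs, and 7.71, 6.34 and 5.3 CPM with PBS. In all 3 genes the first ATEV library and the second NTEV library were the lowest of their groups, and every group overlapped every other.

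The sterol steps followed the same libraries. Sqle, the squalene epoxidase and a slow step of the pathway, had 105, 140 and 139 CPM with ATEVs, 182, 113 and 195 CPM with NTEVs, 184, 133 and 122 CPM with DNAse+ATEVs, and 223, 202 and 142 CPM with PBS. Cyp51, the lanosterol demethylase, had 74, 118 and 111 CPM with ATEVs, 104, 77.2 and 124 CPM with NTEVs, 114, 93.2 and 76.7 CPM with DNAse+ATEVs, and 135, 119 and 89.5 CPM with PBS. Dhcr7, the last reductase before cholesterol, had 77.3, 135 and 108 CPM with ATEVs, 127, 98.6 and 150 CPM with NTEVs, 119, 96.6 and 76.7 CPM with DNAse+ATEVs, and 136, 128 and 103 CPM with PBS. For Sqle the 3 ATEV libraries lay just below the 3 PBS libraries, with no overlap. Cyp51 and Dhcr7 overlapped between all groups.

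Tm7sf2, a sterol reductase of the middle of the pathway, ran differently. It had 6.33, 8.5 and 7.42 CPM with ATEVs, 4.38, 8.45 and 8.05 CPM with NTEVs, 4.72, 5.54 and 7.34 CPM with DNAse+ATEVs, and 3.32, 3.94 and 5.26 CPM with PBS. The 3 ATEV libraries were above all PBS libraries. The gene overlaps Vps51 on the same strand, so reads of the pair may be shared, and Vps51 itself had a log2 fold change of 0.17 (adjusted p = 0.391, edgeR) for ATEVs against PBS. Among the remaining enzymes, group means ran between 17.2 CPM (Hsd17b7 with DNAse+ATEVs) and 140 CPM (Msmo1 with ATEVs).

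**Figure D1:**
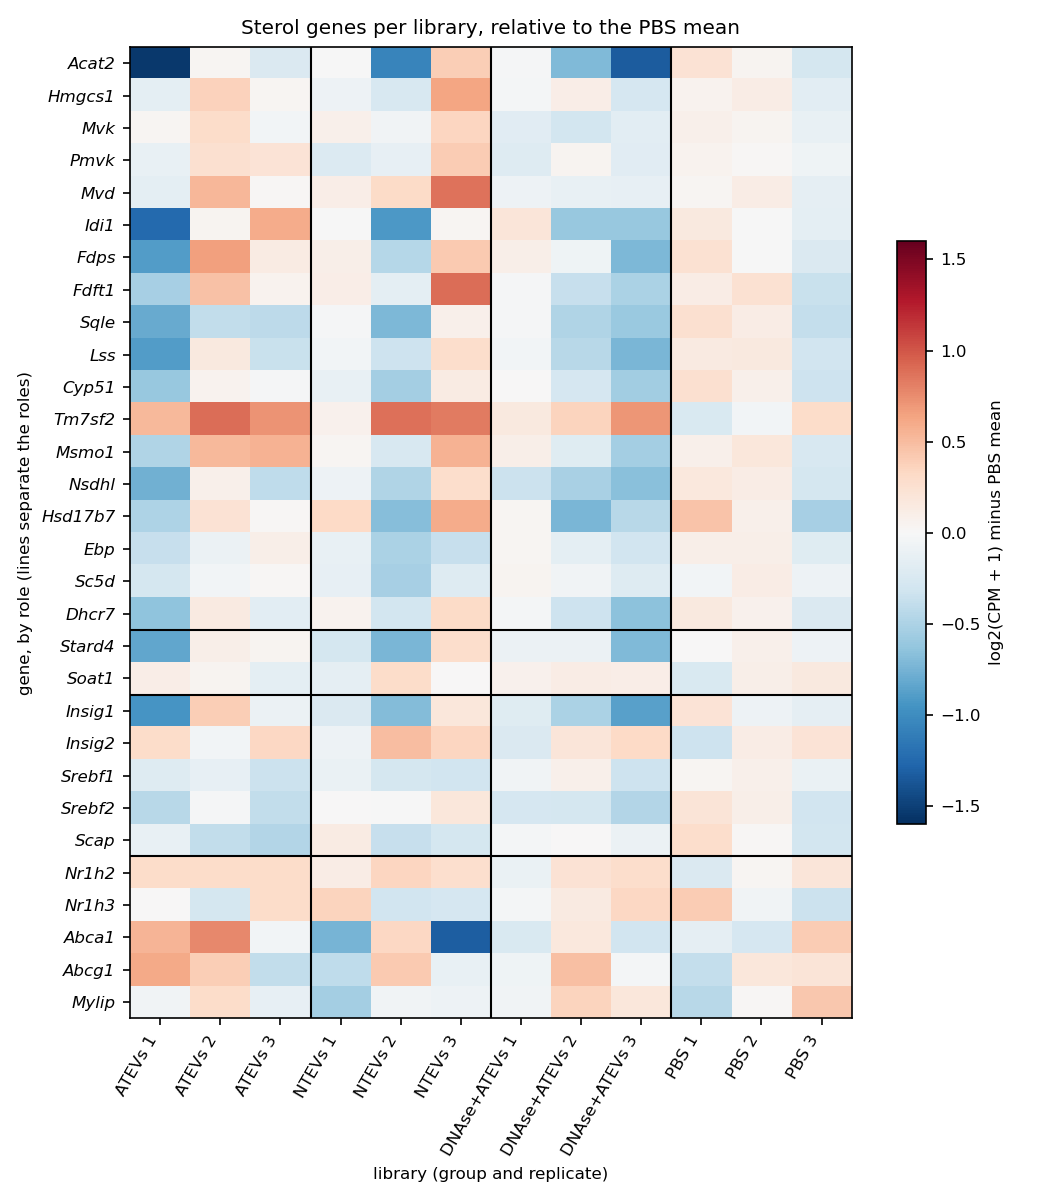
Level of each of the 30 genes (rows, by role) in each of the 12 libraries (columns), as log2(CPM + 1) minus the PBS mean, with red above and blue below. The enzymes are mostly blue in ATEVs 1, NTEVs 2 and DNAse+ATEVs 3 and mostly red in ATEVs 2 and NTEVs 3, and Tm7sf2 lies above the PBS mean in all 9 vesicle libraries.

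In the transfer and storage group, Stard4, a carrier of sterol between membranes, had 33.8, 65.1 and 62.7 CPM with ATEVs, 49.9, 36.4 and 74.5 CPM with NTEVs, 57.2, 57.3 and 37.1 CPM with DNAse+ATEVs, and 61.4, 64.6 and 57.4 CPM with PBS. Soat1, which esterifies cholesterol for storage, had 398, 383 and 332 CPM with ATEVs, 335, 454 and 371 CPM with NTEVs, 387, 403 and 397 CPM with DNAse+ATEVs, and 311, 396 and 411 CPM with PBS. Stard4 dipped in the libraries where the enzymes dipped, and its DNAse+ATEVs libraries lay just below the PBS libraries without overlap. Soat1 overlapped between all groups.

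Among the regulators, Insig1 had 52.4, 134 and 95.6 CPM with ATEVs, 87, 62.9 and 116 CPM with NTEVs, 88.8, 71.3 and 55.4 CPM with DNAse+ATEVs, and 119, 96.4 and 92.6 CPM with PBS. Insig2, its relative, had 26.8, 21.1 and 27.7 CPM with ATEVs, 20.5, 30.9 and 27.8 CPM with NTEVs, 18.4, 25.1 and 27.5 CPM with DNAse+ATEVs, and 17.1, 23.6 and 25.4 CPM with PBS. Insig1 was lower in all 3 DNAse+ATEVs libraries than in any PBS library, but the ATEV libraries spread beyond both groups, while Insig2 was low in the first library of the NTEVs, DNAse+ATEVs and PBS groups. Srebf2, the SREBP that mainly drives sterol genes, had 195, 262 and 201 CPM with ATEVs, 267, 264 and 300 CPM with NTEVs, 221, 218 and 192 CPM with DNAse+ATEVs, and 306, 283 and 215 CPM with PBS. Srebf1, which mainly drives fatty acid genes, had 136, 143 and 125 CPM with ATEVs, 147, 129 and 127 CPM with NTEVs, 152, 166 and 125 CPM with DNAse+ATEVs, and 161, 167 and 146 CPM with PBS. All 3 ATEV libraries were below all NTEV libraries for Srebf2, as were all 3 DNAse+ATEVs libraries. For Srebf1 the ATEV libraries were below all PBS libraries. Scap, the escort of both, averaged 60.4 ± 7.83 CPM with ATEVs, 67.7 ± 13.1 with NTEVs, 73.7 ± 2.64 with DNAse+ATEVs and 76.6 ± 15.2 with PBS (SD, n = 3 each).

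In the LXR arm, Abca1 had 111, 129 and 73 CPM with ATEVs, 44.8, 95.6 and 29.8 CPM with NTEVs, 63.7, 84.9 and 60.8 CPM with DNAse+ATEVs, and 68.4, 62.8 and 100 CPM with PBS. Abcg1, which passes cholesterol to mature HDL particles, had 105, 90.3 and 51.9 CPM with ATEVs, 51.6, 92.3 and 62.8 CPM with NTEVs, 65.1, 96.5 and 66.8 CPM with DNAse+ATEVs, and 52.3, 77.9 and 78.9 CPM with PBS. Mylip, the ubiquitin ligase that removes lipoprotein receptors, had 22.2, 28.4 and 20.9 CPM with ATEVs, 15.5, 22.1 and 21.8 CPM with NTEVs, 22.1, 29.9 and 26.3 CPM with DNAse+ATEVs, and 16.7, 23.3 and 31.4 CPM with PBS. Groups overlapped for each of these 3 targets, and Abca1 was lowest in NTEVs 3, where the enzymes were highest. Of the receptors, Nr1h2 (LXR beta) had 59.6, 59.2 and 59.4 CPM with ATEVs, 52.7, 61.4 and 58.6 CPM with NTEVs, 44.7, 56.7 and 58.8 CPM with DNAse+ATEVs, and 41, 49.5 and 55.6 CPM with PBS. Nr1h3 (LXR alpha) had 5.04, 3.92 and 6.36 CPM with ATEVs, 6.66, 3.84 and 3.98 CPM with NTEVs, 4.86, 5.63 and 6.51 CPM with DNAse+ATEVs, and 6.95, 4.74 and 3.71 CPM with PBS. The ATEV libraries of Nr1h2 lay above the PBS and the DNAse+ATEVs libraries, and Nr1h3 overlapped throughout.

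**Figure D2:**
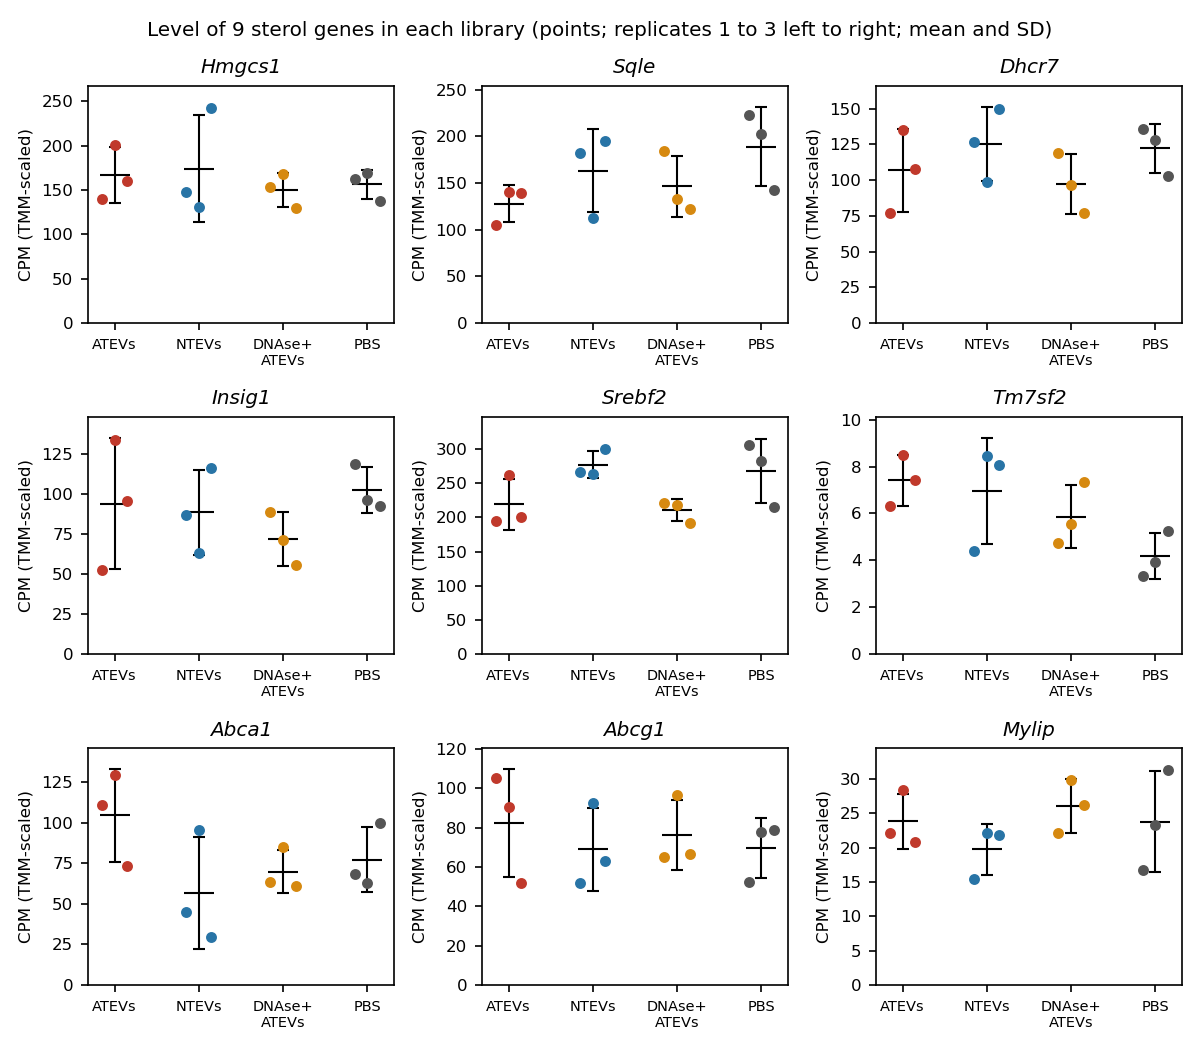
TMM-scaled CPM of 9 of the genes in each library (points, replicates 1 to 3 left to right), with group mean and SD as bars, by group. ATEV libraries lie above PBS libraries for Tm7sf2 (6.33 to 8.5 against 3.32 to 5.26 CPM) and below them for Sqle (105 to 140 against 142 to 223 CPM), while libraries of ATEVs and PBS overlap for the other 7 genes.

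The comparison of ATEVs with PBS asks how the cells answered vesicles of activated T cells. By edgeR's quasi-likelihood test with Benjamini-Hochberg adjustment, 0 of 30 genes were called, against 4.74% of all 13261 tested genes. At an unadjusted p under 0.05 there were 2 of 30, against 26.8% of all genes. DESeq2 called 1 of 30, Tm7sf2, against 11.4% of all genes it tested. Tm7sf2 had the smallest adjusted p, 0.0935, with 7.42 ± 1.09 CPM with ATEVs and 4.17 ± 0.991 CPM with PBS (SD, n = 3 each) and a log2 fold change of 0.83 ± 0.28 (SE; 95% interval 0.23 to 1.43). Other fits put it past the threshold, among them those with an adjusted p of 0.0386 in DESeq2, 0.0401 with no filter on low counts and 0.0481 in a fit of the 6 libraries compared. It passed in none of the 6 edgeR fits that left out 1 library (log2 fold change 0.7 to 1.02, adjusted p 0.0808 to 0.284). With RLE factors in place of TMM the adjusted p was 0.0923. Sqle averaged 128 ± 19.8 CPM with ATEVs and 189 ± 41.8 CPM with PBS, a log2 fold change of -0.56 ± 0.23 (interval -1.06 to -0.06, adjusted p = 0.148). Acat2, the thiolase at the head of the pathway, had -0.46 (interval -1.38 to 0.46, adjusted p = 0.5), and leaving out 1 library moved it between -0.78 and -0.11. Groups did not overlap for 4 of the 30 genes, Tm7sf2 and Nr1h2 higher and Sqle and Srebf1 lower with ATEVs, against 33.1% of all tested genes. Of the enzymes, 8 had a positive and 10 a negative log2 fold change, with a median of -0.07, against 0.03 over all genes.

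NTEVs against PBS asks the same of vesicles of non-activated T cells. It called 0 of 30 genes by edgeR and 0 by DESeq2, against 2.31% of all genes by edgeR and 6.24% by DESeq2, and 3 of 30 had an unadjusted p under 0.05, against 19.1%. Tm7sf2 averaged 6.96 ± 2.24 CPM with NTEVs and 4.17 ± 0.991 CPM with PBS, a log2 fold change of 0.73 ± 0.28 (interval 0.14 to 1.33, edgeR adjusted p = 0.175). Mvd, the decarboxylase that yields isopentenyl diphosphate, averaged 77.8 ± 22.8 CPM with NTEVs and 56.3 ± 5.39 CPM with PBS, at 0.47 ± 0.2 (interval 0.03 to 0.9, adjusted p = 0.229). The largest negative value was that of Abca1, -0.44 (interval -1.19 to 0.31, adjusted p = 0.508). Single libraries weighed heavily: Tm7sf2 passed without NTEVs 1 (1, adjusted p = 0.0254) but had 0.55 (0.522) without NTEVs 2 and 0.63 (0.434) without NTEVs 3. Leaving out 1 library moved Mvd between 0.21 and 0.63, and Abca1 between -1.05 and -0.13. Only Sc5d, a late desaturase, had groups that did not overlap, lower with NTEVs, which is 1 of 30 against 23.8% of all genes. The median enzyme stood at 0.04, with 10 positive and 8 negative, against 0 over all genes.

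DNAse+ATEVs against PBS asks how the cells answered ATEVs pretreated with the DNA-degrading enzyme. EdgeR called 0% of the 13261 tested genes and 0 of 30 here. At an unadjusted p under 0.05 there were 2 of 30, against 5.96% of all genes, and DESeq2 called 37 genes (0.3%), 0 of them among the 30. The enzymes leaned to one side, with 17 of 18 log2 fold changes negative. Their median was -0.26, against 0 over all genes and 0.01 over the other members. The positive one was Tm7sf2, at 0.49 (interval -0.11 to 1.09, edgeR adjusted p = 0.826). Acat2 had -0.62 (interval -1.54 to 0.31, edgeR adjusted p = 0.826), Nsdhl, a demethylation enzyme, -0.53 (-1.03 to -0.04, 0.803) and Insig1 -0.52 (-1.15 to 0.12, 0.826). Leaving out 1 library moved these between -1.04 and -0.34, between -0.67 and -0.44, and between -0.71 and -0.36. Mvk (mevalonate kinase), Nsdhl, Stard4 and Insig1 were lower with DNAse+ATEVs with no overlap, 4 of 30 against 13.4% of all genes. These enzymes moved together between libraries, so 17 signs are not 17 separate observations.

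**Figure D3:**
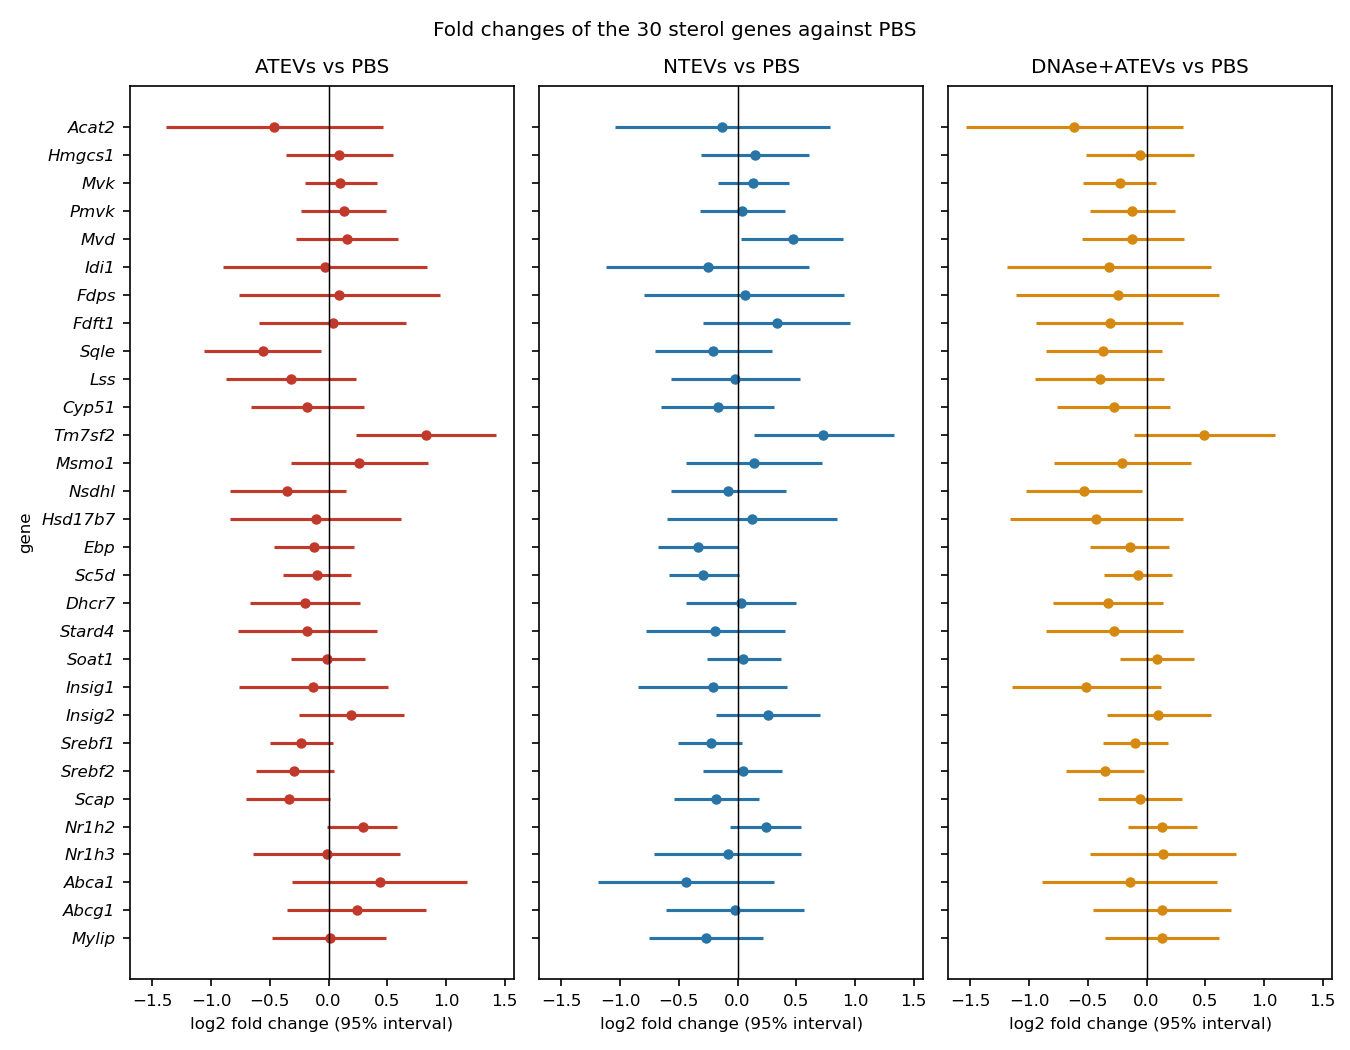
Log2 fold change of each of the 30 genes (points) with its 95% interval (bars) for ATEVs, NTEVs and DNAse+ATEVs, each against the same 3 PBS libraries. Points lie between -0.62 and 0.83, and most intervals cross 0, with Tm7sf2 the gene farthest right for ATEVs, NTEVs and DNAse+ATEVs alike.

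The other comparisons set vesicle groups against each other. For ATEVs against DNAse+ATEVs, which share the vesicle and the dose and differ in the DNase step, 0 of 30 genes were called by edgeR or DESeq2, against 1.46% of all genes by edgeR and 3.62% by DESeq2. There was 1 of 30 at an unadjusted p under 0.05, against 15.2%. Abca1 had the largest log2 fold change, 0.58 (interval -0.17 to 1.33, adjusted p = 0.44), followed by Msmo1, a sterol demethylation enzyme, at 0.47 (-0.11 to 1.05, 0.42) and Insig1 at 0.39 (-0.25 to 1.03, 0.551). Insig1 had 0.04 without ATEVs 2 and 0.67 without ATEVs 1, and leaving out 1 library moved Msmo1 between 0.31 and 0.74 and Abca1 between 0.4 and 0.78. Mvk and Nr1h2 were higher and Scap lower with ATEVs without overlap, 3 of 30 against 20.2% of all genes. The median enzyme was 0.21, with 16 positive, against 0 over all genes, and it was 0.01 without ATEVs 2.

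ATEVs against NTEVs called 0 of 30 by edgeR or DESeq2, against 0.935% of all genes by edgeR and 2.64% by DESeq2, and 2 of 30 had an unadjusted p under 0.05, against 13.4%. Abca1 averaged 104 ± 28.6 CPM with ATEVs and 56.7 ± 34.5 CPM with NTEVs, a log2 fold change of 0.88 ± 0.35 (interval 0.12 to 1.63, adjusted p = 0.31). It was 1.49 (adjusted p = 0.0215) without NTEVs 2 and 0.56 (0.59) without NTEVs 3, and with no filter on low counts the adjusted p was 0.0496. Sqle had -0.35 (adjusted p = 0.522) and Srebf2 -0.34 (adjusted p = 0.37), Srebf2 being the 1 of 30 without overlap, against 15.8% of all genes. Of the enzymes 7 were positive and 11 negative, with a median of -0.04, against -0.01 over all genes. The doses of these vesicles differed, so vesicle kind and amount cannot be told apart.

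NTEVs against DNAse+ATEVs called 0 of 30 by edgeR or DESeq2, against 0.679% of all genes by edgeR and 2.88% by DESeq2, and 4 of 30 had an unadjusted p under 0.05, against 12.3%. Fdft1, the squalene synthase, averaged 70.6 ± 28.7 CPM with NTEVs and 45.1 ± 8.15 CPM with DNAse+ATEVs, a log2 fold change of 0.65 (interval 0.02 to 1.27, adjusted p = 0.385). Mvd had 0.58 (0.15 to 1.02, 0.244) and Hsd17b7, a sterol keto-reductase, 0.55 (-0.18 to 1.28, 0.569). Without NTEVs 3 the values were 0.28 for Fdft1, 0.33 for Mvd and 0.28 for Hsd17b7. Mvk, Mvd and Srebf2 were higher with NTEVs without overlap, 3 of 30 against 16.2% of all genes. The median enzyme was 0.32, with 16 positive, against -0.01 over all genes, and it was 0.12 without NTEVs 3. Vesicle kind, dose and the DNase step all differ between these groups and cannot be told apart. The same-numbered libraries of these groups deviated together (r = 0.7, 0.49 and 0.16). With the replicate number as a block, 41 genes were called in the edgeR fit of all 12 libraries, against 90 with no block. In a fit of these 6 libraries alone, 609 were called with the block, against 2 with no block. Of the 30, 0 were called in any of these fits. The blocked fit of 6 was added after the data were seen, and in it Mvd had the log2 fold change 0.55 (adjusted p = 0.051). Over the 4 groups at once, 0 of 30 were called, against 3.5% of all genes, with 1 at an unadjusted p under 0.05 (Tm7sf2, adjusted p = 0.232), against 21.3%. These comparisons share libraries, so their values are set side by side and not counted as separate evidence.

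The spread within groups had a pattern of its own. Relative to PBS on the log2(CPM + 1) scale, the mean of the 18 enzymes was -0.53, 0.23 and 0.05 in the ATEV libraries, 0, -0.34 and 0.36 in the NTEV libraries, -0.02, -0.27 and -0.44 in the DNAse+ATEVs libraries, and 0.13, 0.09 and -0.21 in the PBS libraries. Group means were -0.08 ± 0.4 for ATEVs, 0.01 ± 0.35 for NTEVs, -0.24 ± 0.21 for DNAse+ATEVs and 0 ± 0.19 for PBS (SD, n = 3 each). Group means thus spanned -0.24 to 0.01, while single libraries spanned -0.53 to 0.23 with ATEVs and -0.34 to 0.36 with NTEVs. In bulk RNA, fewer cells with a high level and a lower level in every cell cannot be told apart.

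The same libraries led and trailed for most enzymes. ATEVs 1 was the lowest library of its group for 17 of 18 enzymes, against 37.4% of all tested genes, and ATEVs 2 the highest for 14, against 26.1%. NTEVs 2 was the lowest for 15, against 40.4%, and NTEVs 3 the highest for 15, against 23%. DNAse+ATEVs 3 was the lowest for 13, against 30.2%, and DNAse+ATEVs 1 the highest for 14, against 38%. PBS 3 was the lowest for 17, against 36.7%, and PBS 1 the highest for 11, against 36.6%. The median within-group SD was 0.32 log2 units over the enzymes, against 0.29 over the other members and 0.2 over all genes, and 15 of 18 enzymes lay above the all-gene median.

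Correlating each gene's deviations from its group means with the mean deviation of the other enzymes, over the 12 libraries (8 residual degrees of freedom), gave a Pearson r of at least 0.65 for 17 of 18 enzymes. They ran from 0.68 for Ebp, a sterol isomerase, to 0.97 for Dhcr7. Tm7sf2 stood at -0.17. Over all tested genes the quartiles of r were -0.42 and 0.41, 7.98% reached 0.65 and 0.287% reached 0.9, which 10 of the 30 genes did. These are descriptions, since the points share libraries and library scaling. Without the 2 libraries farthest out, ATEVs 1 and NTEVs 2, 13 enzymes reached 0.65, with Ebp lowest at 0.45 among those that had passed. The group means were still those of all 12 libraries. The 2 libraries left out thus keep a part in these values, which do not show what would hold without them.

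Among the other members, genes of 1 role could differ in sign. Insig1 moved with the enzymes at r = 0.96, Stard4 at 0.93 and Srebf2 at 0.75. Srebf1 had 0.26 and Scap 0.02. Insig2 and Soat1 each had -0.53, and in the LXR arm Abca1 had -0.57, Abcg1 -0.49, Nr1h2 -0.47, Mylip -0.16 and Nr1h3 0. Without the 2 farthest libraries, and with group means unchanged, Abca1 had -0.4, Abcg1 -0.14 and Soat1 -0.25, nearer to 0 than over all libraries. Insig2 then had -0.47, Nr1h2 -0.53, Mylip -0.18 and Nr1h3 -0.2. Of 18 related genes of fatty acid synthesis and desaturation, 6 reached 0.65, within a range of -0.34 to 0.85. Of the related genes with high or low r, Fasn and Fads2 of fatty acid synthesis had 0.82 and 0.85, and Acly, which supplies acetyl-CoA, 0.81. The lipoprotein receptors Lrp8 and Scarb1 had 0.92 and 0.87, and Erlin1, of the sterol-linked degradation machinery, -0.87. Of the lipoprotein and scavenger receptors, Msr1 had 0.75 and Scarb2 -0.8. The 15 tested genes of endosomal and contact-site sterol handling ran from -0.79 (Osbp) to 0.49, and 0 reached 0.65.

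**Figure D4:**
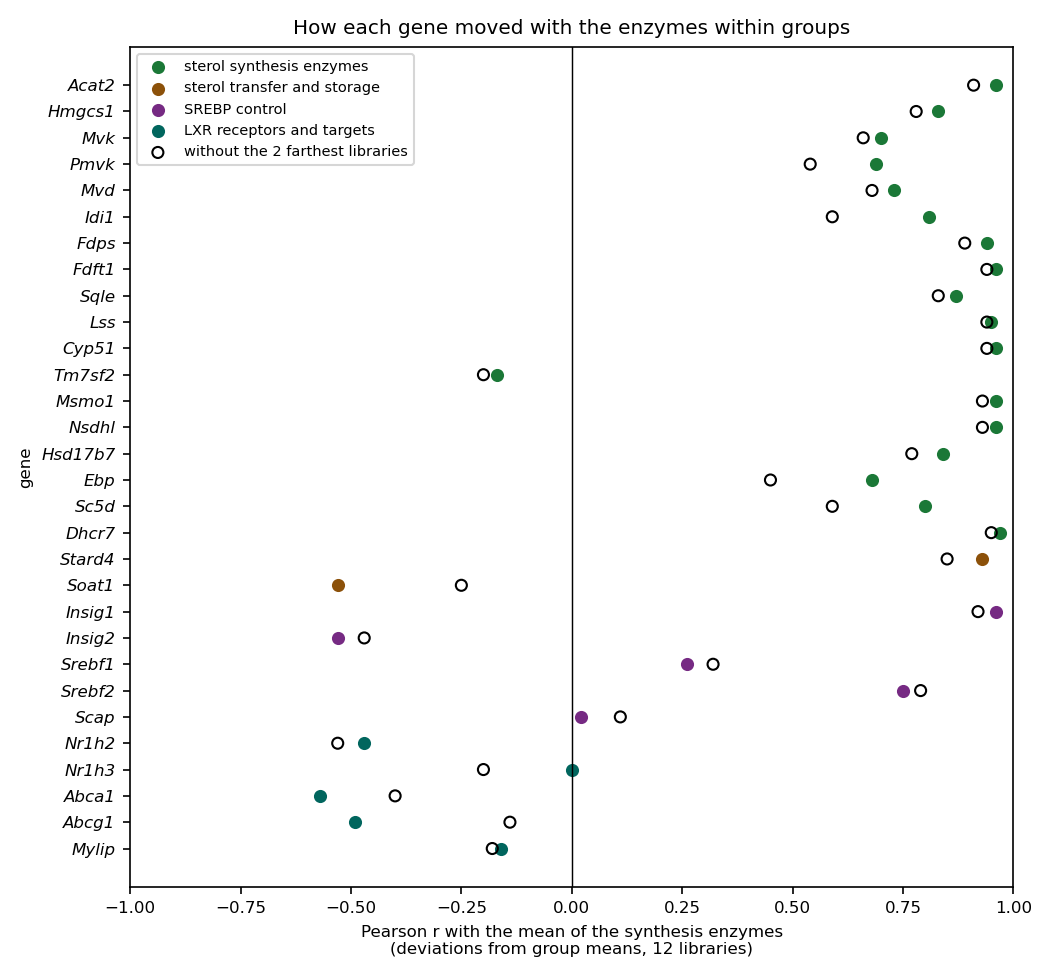
Pearson r of each gene (rows) with the mean of the other synthesis enzymes, over deviations from group means in 12 libraries (filled, coloured by role). Open points leave out the 2 farthest libraries and keep the group means of all 12. All enzymes but Tm7sf2 (-0.17) lie at 0.68 or above when filled, with Insig1 at 0.96 and Stard4 at 0.93, and the exporters Abca1 and Abcg1 at -0.57 and -0.49.

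**Figure D5:**
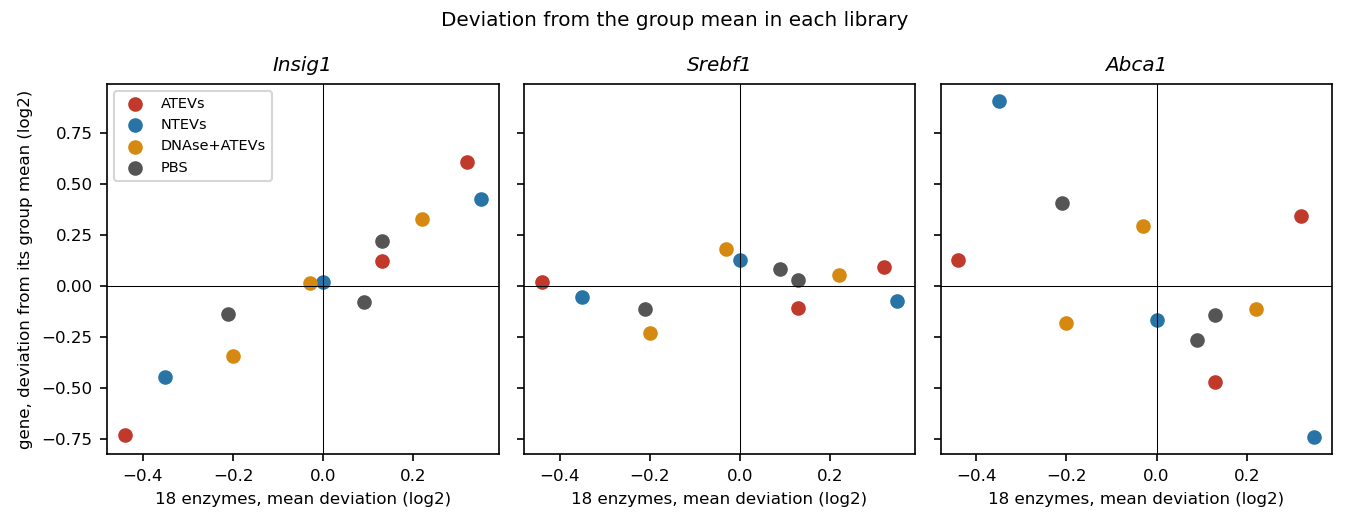
Deviation of Insig1, Srebf1 and Abca1 from the group mean in each library (vertical) against the mean deviation of the 18 enzymes (horizontal), both in log2 units, coloured by group. Insig1 follows the enzymes in all 4 groups (r = 0.96), Srebf1 is nearly flat (0.26), and Abca1 scatters with a downward lean (-0.57).

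Library measures were set beside this pattern. In each of the 4 groups the library with the lowest enzyme mean had the highest value on the first principal component of all genes (39.8% of the variance): 24.9 for ATEVs 1, 35 for NTEVs 2, 8.57 for DNAse+ATEVs 3 and -11.2 for PBS 3. Those libraries had totals of 22.2, 24, 22.9 and 23.1 M counts, inside the range of 19.4 to 30.4 M over all libraries, and TMM factors of 1.05, 1.04, 1.05 and 1.01. At the other end the match was partial. DNAse+ATEVs 1 (-24.3) and PBS 1 (-32.9), highest in enzymes, were lowest of their groups on the component. ATEVs 2 (18.3) and NTEVs 3 (11.8), also highest in enzymes, were not, with ATEVs 3 at 4.38 and NTEVs 1 at -18.4. What the component stands for, and its part in the enzyme pattern, was not tested.

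Around the 30 genes, 77 genes in 7 related lists were followed, of which 69 were tested. With ATEVs against PBS edgeR called 8 of the 69 (11.6%), against 4.74% of all genes, in lists chosen with earlier results known. Of 18 fatty acid genes edgeR called 1, Acsl3, an acyl-CoA ligase, which fell (-0.54, adjusted p = 0.0281), with 10 at an unadjusted p under 0.05. DESeq2 called 4 of them, Acss2 higher and Acsl3, Fads2 and Me1 lower. Of 15 tested genes of endosomal and contact-site sterol handling edgeR called 4, all higher, and DESeq2 called these and Tmem97, the last lower. By edgeR, Stard3nl rose by 1.07 (0.00941), Gramd1b by 0.75 (0.0175), Npc2 by 0.68 (0.0246) and Lamp2 by 0.48 (0.0474), all log2 fold changes with adjusted p-values. Of 6 tested lipoprotein and scavenger receptors, Cd36 rose by 1.09 (0.0197) and Msr1 by 1.3 (0.0357), and DESeq2 also called Lrpap1. Of 6 tested genes listed as further LXR targets, Abca7 rose by 0.78 (0.0279), and DESeq2 also called Lpcat3, which was lower. The median of these 6 was -0.1. EdgeR called 0 of 14 isoprenoid genes (3 at an unadjusted p under 0.05, 2 by DESeq2), 0 of 2 oxysterol enzymes (1 unadjusted, 0 by DESeq2) and 0 of 8 SREBP-processing genes (1 unadjusted, 0 by DESeq2). Over all genes the share was 26.8% at an unadjusted p under 0.05 and 11.4% by DESeq2. Gramd1b carries sterol from the plasma membrane inward, Npc2 binds cholesterol in the lysosome, and Cd36 and Msr1 take up modified lipoproteins.

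Stard3nl, a protein that tethers endosomes to the endoplasmic reticulum, had 17.7, 22.7 and 30.6 CPM with ATEVs, 15.1, 14.5 and 15.7 CPM with NTEVs, 13.5, 11.1 and 15.4 CPM with DNAse+ATEVs, and 12, 12.1 and 9.65 CPM with PBS. All ATEV libraries lay above those of every other group, and leaving out any 1 of the 6 libraries kept the call (largest edgeR adjusted p = 0.0466). For Cd36 the ATEV libraries had 159, 272 and 294 CPM, the NTEV libraries 174, 123 and 126 CPM, the DNAse+ATEVs libraries 171, 125 and 124 CPM, and the PBS libraries 135, 95.9 and 110 CPM. Msr1 had 128, 233 and 336 CPM with ATEVs, 162, 101 and 138 CPM with NTEVs, 145, 92.3 and 84.7 CPM with DNAse+ATEVs, and 120, 80.6 and 81.8 CPM with PBS. Both receptors were high in ATEVs 2 and ATEVs 3, and ATEVs 1 lay within the range of the other vesicle groups. The 9 macrophage markers, all tested, summed to 4870 to 7930 CPM with ATEVs, 5320 to 5760 with NTEVs, 3330 to 3640 with DNAse+ATEVs and 3530 to 4130 with PBS. Lyz2 alone ran from 1200 to 5410 CPM over all libraries. For ATEVs against PBS edgeR called 2 of the 9 higher and 1 lower, against 4.74% of all genes. The part of these markers in the receptor result was not tested.

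With NTEVs against PBS edgeR called 3 of the 69 (4.35%), against 2.31% of all genes. Acss2, which makes acetyl-CoA from acetate, rose by 1.32 (edgeR adjusted p = 0.043), Abca7 by 0.75 (0.045) and Gramd1b by 0.7 (0.0377) on the log2 scale. Each call was lost in 5 of the 6 fits that left out 1 library, and in a fit of only the 6 libraries compared (adjusted p = 0.117, 0.105 and 0.0823). Of the ATEV calls, Acsl3, Abca7, Lamp2 and Msr1 were each lost in 5 of 6 such fits and held only without the first ATEV library. In the fit of only those 6 libraries Lamp2 was lost as well (adjusted p = 0.052). Npc2 was lost in 4 (without PBS 1, PBS 2, ATEVs 2 or ATEVs 3), Cd36 in 4 (without PBS 2, PBS 3, ATEVs 2 or ATEVs 3), and Gramd1b in 3 (without PBS 1, PBS 2 or ATEVs 2). In the other 4 comparisons edgeR called 0 of the 69. At an unadjusted p under 0.05 there were 10 (14.5%) for ATEVs against DNAse+ATEVs, against 15.2% of all genes, and 10 (14.5%) for ATEVs against NTEVs, against 13.4%. There were 7 (10.1%) for NTEVs against DNAse+ATEVs, against 12.3%, and 5 (7.25%) for DNAse+ATEVs against PBS, against 5.96%. DESeq2 called 3 for ATEVs against DNAse+ATEVs (Stard3nl, Cd36 and Msr1, all higher with ATEVs) and 1 for NTEVs against DNAse+ATEVs (Rnf139, lower with NTEVs). Ch25h, which makes an oxysterol that silences SREBP, had no count in any library.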

How the data were processed

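Values are whole-number counts per gene, 1 column per library, as deposited by the authors and with no normalization visible. For the steps before, the tools listed in the submitters' processing notes are TopHat2 2.0.11 and TopHat, with bcl2fastq 2.19 and Cufflinks 2.1.1, and the build is mm9. The read counter, annotation and strand setting are not given in the sources used here. Counts of overlapping genes (Tm7sf2 and Vps51, Fdps and Gm43738 on 1 strand; Fdft1 and Ctsb, Cyp51 and Akap9, Srebf1 and Rai1, Mvd and Gm20388 on opposite strands) and of close relatives (Acat2 and Acat3, Idi1 and Idi2) are therefore uncertain. Of 42687 identifiers, 42250 were matched to symbols of GENCODE M21 and 437 were not.

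Groups came from the treatment labels and replicate numbers from the titles. In R 4.3.3, edgeR 4.0.16 kept 13261 genes (filterByExpr, minimum count 10, minimum total 15), scaled libraries by TMM, and fitted a quasi-likelihood model with 1 mean per group to all 12 libraries. The 6 comparisons are two-sided, with Benjamini-Hochberg adjustment over 13261 genes and a call at 0.05. Intervals are 95%. Libraries held 19.4 to 30.4 M counts, which sets the counting error. Replicates differed by more than counting noise (chi-square per degree of freedom 13.6 to 119), so none was a copy. Within-group deviations used log2(CPM + 1). Alternatives were RLE factors, no filter, a replicate block, only the libraries compared, DESeq2 1.42.0 and leaving out each library. Whether equal replicate numbers pair libraries was checked from the correlation of deviations from group means: all 3 pairs exceeded 0.1 for NTEVs with DNAse+ATEVs, and for no other 2 groups, and the labels name no shared batch. A blocked fit of those 6 libraries was added after the data were seen. The procedure was tested on simulated counts in which genes varied independently. The planted changes were larger than any of the 30 genes had in the main fit. That test therefore does not cover changes of the size seen here, or genes that vary together.

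The genes and lists were chosen with earlier results of these data known. Values in every library are given for a panel with members of each role. Fold changes are given for the 3 largest per comparison, and for Tm7sf2 in DNAse+ATEVs against PBS. Of related lists, up to 4 called genes per comparison with the smallest adjusted p are named. The genes set beside the enzymes by r outside the 30, and Tm7sf2, Stard3nl, Cd36 and Msr1 as genes shown by library, were picked after their values were seen. Promoter sequences are from the RefSeq table of GRCm38.p6, and no other coordinates are given because the notes name another build.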

Additional observations from a re-analysis of the deposited data

How the results depend on the processing

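The alternatives were followed for the 3 largest fold changes per comparison, the related genes called by edgeR, and Vps51. None of these fold changes changed sign. The other plotted fold changes of the 30 genes were not checked for sign. For ATEVs against PBS, 1 of the 30 genes (Tm7sf2) was called with no filter on low counts (adjusted p = 0.0401), with a replicate block (0.0288), with only the 6 libraries compared (0.0481) and with DESeq2 (0.0386), against 0 in edgeR as reported. For ATEVs against NTEVs, 1 gene (Abca1) was called with no filter (0.0496). Leaving out 1 library gave 0 to 1 called genes for NTEVs against PBS (Tm7sf2, without NTEVs 1), for ATEVs against NTEVs and for the test over the 4 groups (Abca1, without NTEVs 2), and 0 to 0 for the other comparisons. Where an arm kept 2 libraries the spread was shared over all groups. The median enzyme log2 fold change ran over those fits from -0.18 to 0.1 for ATEVs against PBS, -0.18 to 0.17 for NTEVs against PBS, -0.45 to -0.16 for DNAse+ATEVs against PBS, 0.01 to 0.37 for ATEVs against DNAse+ATEVs, -0.31 to 0.11 for ATEVs against NTEVs and 0.12 to 0.46 for NTEVs against DNAse+ATEVs. Counts over all genes moved more: ATEVs against PBS gave 628 calls, and 1317 with no filter, 1440 with the block, 1244 with 6 libraries and 1516 with DESeq2. NTEVs against PBS gave 306, and 876, 343, 19 and 826 in the same order of settings. DNAse+ATEVs against PBS gave 0, and 47, 1, 0 and 37. ATEVs against DNAse+ATEVs gave 194, and 394, 261, 178 and 479. ATEVs against NTEVs gave 124, and 242, 135, 82 and 361. NTEVs against DNAse+ATEVs gave 90, and 319, 41, 2 and 381. Leaving out 1 library gave 169 to 849, 34 to 1685, 0 to 8, 78 to 522, 70 to 302 and 4 to 321 calls for these comparisons in that order, so the shares of all genes set beside the 30 move with single libraries. The cause was not tested. Outside NTEVs against DNAse+ATEVs, no pair of groups had all 3 same-numbered pairs of libraries over a correlation of 0.1, so the numbers were not taken to pair them. Over all 18 such pairs it ran from -0.45 to 0.7, with 8 over 0.1, and 4 of 12 libraries correlated best with their own number. The replicate block called Tm7sf2 as given above and changed no other call among the 30. With 3 libraries a group and enzymes that moved together between libraries, intervals were wide, and a missed threshold does not show equal levels.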
